A study of Mus musculus with 4 samples.

Results

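The genes described here are the receptors through which leukocytes bind the constant part of IgG, 2 small signalling adaptor proteins, and a kinase that binds such adaptors. They were taken by symbol: Fcgr1, Fcgr2b, Fcgr3, Fcgr4, Fcer1g, Tyrobp and Syk. These are 7 of 22180 genes that had a probe set annotated with exactly 1 symbol, and each of the 7 had exactly 1 such probe set. Bone marrow-derived dendritic cells, antigen-presenting cells grown from marrow precursors of C57BL/6 mice, were harvested on day 7 of culture. Sulforaphane, a plant isothiocyanate known to activate the transcription factor NRF2, was given at 0.3 µM in DMSO for 2 h, and control cells had DMSO alone for the same time. All cells, controls included, then received 100 ng/ml lipopolysaccharide (LPS), a bacterial ligand of TLR4, for 1 h. Total RNA of 2 samples per treatment was measured on Affymetrix arrays, 4 arrays in all. Cells without LPS were not analysed here. Nothing in the labels ties the replicates to separate mice or cultures, so p-values cover the spread between these 4 samples only, and that spread may be technical.

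Activating Fc receptors such as Fcgr1, Fcgr3 and Fcgr4 reach the cell surface together with the adaptor encoded by Fcer1g, which holds a pair of tyrosines in a motif called ITAM (immunoreceptor tyrosine-based activation motif). Src family kinases phosphorylate these tyrosines when immune complexes cluster the receptors, and Syk docks on them and passes the signal on. Fcgr2b works alone and against this route, through an inhibitory motif (ITIM) that recruits phosphatases. Tyrobp, also called DAP12, is a second ITAM adaptor that serves receptors such as Trem1 and Trem2. In dendritic cells the IgG receptors among these genes govern the uptake of immune complexes and the presentation of the antigen those complexes carry.

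Windows of 250 bases before to 50 bases after annotated starts, from RefSeq (GRCm38.p6), were matched for 6 of the 7 genes, all but Tyrobp. The 250 bases before the start are shown for Fcgr1 and Fcgr3, the 2 receptors with the largest differences between treatments, which lay in opposite directions. Both sequences are written 5′ to 3′ on the gene's strand, which is the minus strand, and the second of the 2 annotated starts of Fcgr3 was used. Capitals mark a GAS motif (TTCNNNGAA) and the core of a PU.1 site (GAGGAA, read here from the opposite strand). PU.1 is a transcription factor of myeloid cells.
Fcgr1, chr3:96293970-96294219: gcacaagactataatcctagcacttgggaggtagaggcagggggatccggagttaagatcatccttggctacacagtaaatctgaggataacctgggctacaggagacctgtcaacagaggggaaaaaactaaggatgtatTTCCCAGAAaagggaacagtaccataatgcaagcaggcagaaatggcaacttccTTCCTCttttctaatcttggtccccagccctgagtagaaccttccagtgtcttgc
Fcgr3, chr1:171059395-171059644: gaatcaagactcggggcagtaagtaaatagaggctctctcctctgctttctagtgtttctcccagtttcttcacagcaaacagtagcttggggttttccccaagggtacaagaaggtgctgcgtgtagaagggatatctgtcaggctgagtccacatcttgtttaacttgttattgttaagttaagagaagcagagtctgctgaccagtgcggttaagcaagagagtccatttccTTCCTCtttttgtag

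These Fcgr1 and Fcgr3 sequences shared a run of 14 bases, ttccTTCCTCtttt, that holds the PU.1 core. It began at position -59 relative to the start of Fcgr1 and at -19 relative to that of Fcgr3. The longest run in the same stretch was 8 bases for Fcgr2b with Fcgr3, Fcgr2b with Fcgr1, Fcgr1 with Fcgr4 and Fcgr3 with Fcgr4. How often other promoters share a run of 14 bases was not examined. Counted from the first start of Fcgr3, the PU.1 core ends at -1, so the run extends past that start.

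On both strands of the whole windows, the PU.1 core was found in 4 of 6 genes and in 5 of 8 windows, and 28.3% of all 32851 mouse promoter windows held it. Besides Fcgr1 and both windows of Fcgr3, these were the windows of Fcgr4 and of the second start of Syk, the tyrosine kinase. The windows of Fcgr3 overlap, and their matches are the same genomic site counted once per window. The match in Fcgr4 and that in Syk are shown with 30 bases each for comparison with the pair above, again with the core in capitals.
Fcgr4, chr1:171018892-171018921, plus strand: aaggctatttacTTCCTCtcttctagtcaa
Syk, chr13:52596852-52596881, plus strand: tgtcttgcttgctgacactttGAGGAAaag

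The GAS motif was found in Fcgr1 alone of the 6 genes, from position -109 to -101 relative to the start, and did not overlap the PU.1 core. It was present in 8.3% of all windows. The core of the interferon-stimulated response element (a pair of GAAA runs with any 2 bases between them) was found in Fcgr4 alone, and in 3.44% of all windows. The core of the antioxidant response element bound by NRF2 (TGACNNNGC) was in 0 of the 8 windows and in 12.4% of all windows. Such a match is a description of letters, and its absence says only that these letters are not in this window. The map of motif matches shows that the windows of Fcgr2b, Fcer1g and the first start of Syk held none of the 4 motifs.

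**Figure D1:**
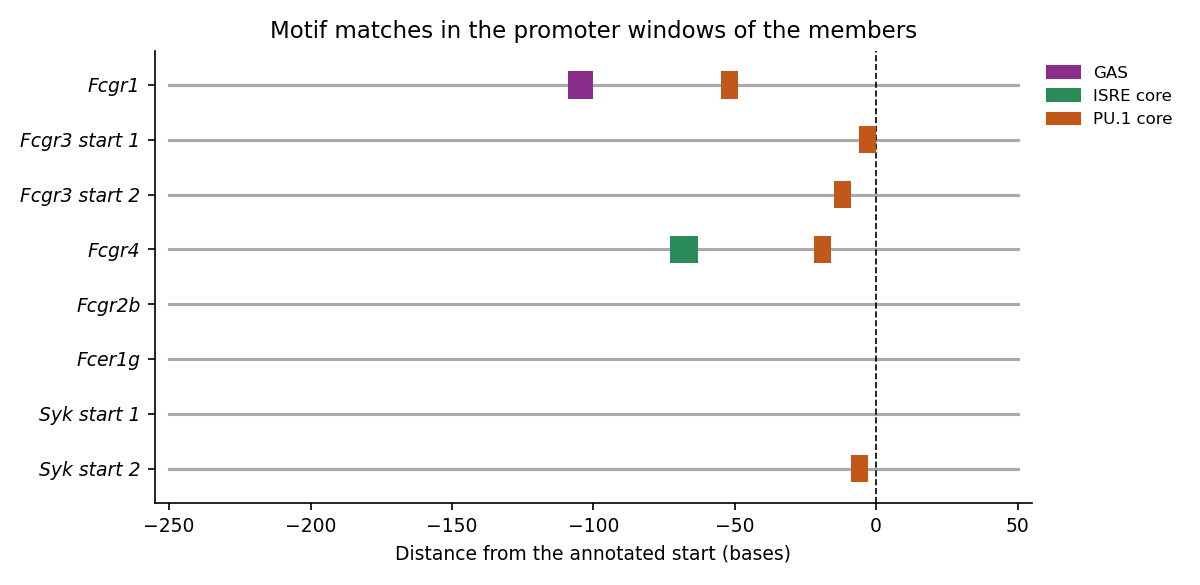
Motif matches in 8 promoter windows of 6 genes, by distance in bases from the annotated start (dashed line), each grey line covering 250 bases before to 50 after it. PU.1 core matches lie in Fcgr1, both windows of Fcgr3 (the same genomic site), Fcgr4 and the second window of Syk. The GAS match lies in Fcgr1 and the interferon-stimulated response element (ISRE) core in Fcgr4.

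Fcgr2b, Fcgr4 and Fcgr3 are consecutive protein-coding genes on mouse chromosome 1, with 0 others between them, and 7 protein-coding genes separate Fcgr3 from Fcer1g. Mouse Fcgr2b and Fcgr3 are close paralogs whose extracellular parts are near-identical. Probe sequences were not used here, so how much of either probe set's signal comes from the other gene is unknown.

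The deposited values are RMA expression values on a scale read as log2, so a difference of 1 is a doubling. Array medians lay between 3.24 and 3.27. The interquartile range was 3.41 on DMSO replicate 1 and 3.61 to 3.62 on the other 3 arrays, which sets that array apart. Among 908 genes with a mean of 10 or more it lay below DMSO replicate 2 in 66.6%, against 57.5% of all genes tested. The dendritic cell label was set against its 13 measured markers, whose mean log2 values ran from 4.72 for Flt3, a growth factor receptor, to 11.68 for H2-Ab1, an MHC class II chain. Itgax, the integrin CD11c, averaged 11.29, and the transcription factors Zbtb46 and Batf3 6.16 and 6.92. Markers of other marrow cells were also measured. All 12 neutrophil markers were high, from 7.66 for Camp, at the 84.1 percentile of all probe sets, to 11.53 for Mmp8. Those of macrophages and monocytes ran from low values such as 3.06 (Siglec1) up to 11.27 (Ly6c2). Those of mast cells and basophils ranged from 2.18 (Mcpt4) to 9.98 (Cpa3), with Fcer1a at 3.65. The samples are bulk RNA, so fewer cells of a type and less RNA per cell cannot be told apart.

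The comparison asked which of these transcripts differed after sulforaphane in LPS-stimulated cells. The largest differences were a 1.31-fold higher level of Fcgr3 and a 1.21-fold lower level of Fcgr1, and neither passed the test. Of the 7 genes, 0 passed the threshold of an adjusted p of 0.05 in limma's test over 14652 genes, where 0.13% of all genes passed. Without adjustment, 1 of the 7, Fcgr3, had a p under 0.05, against 13% of all genes. The difference was above 0 in 4 genes and below 0 in 3, where 45.8% of all genes lay below 0, with a median of 0.067, beside a median of 0.018 over all genes tested. The groups did not overlap in 3 genes, Fcgr3 (higher) and Fcgr1 and Syk (lower). That background was 43.6% of all genes, 24% higher and 19.5% lower, so a count of 3 among 7 is near it.

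**Figure D2:**
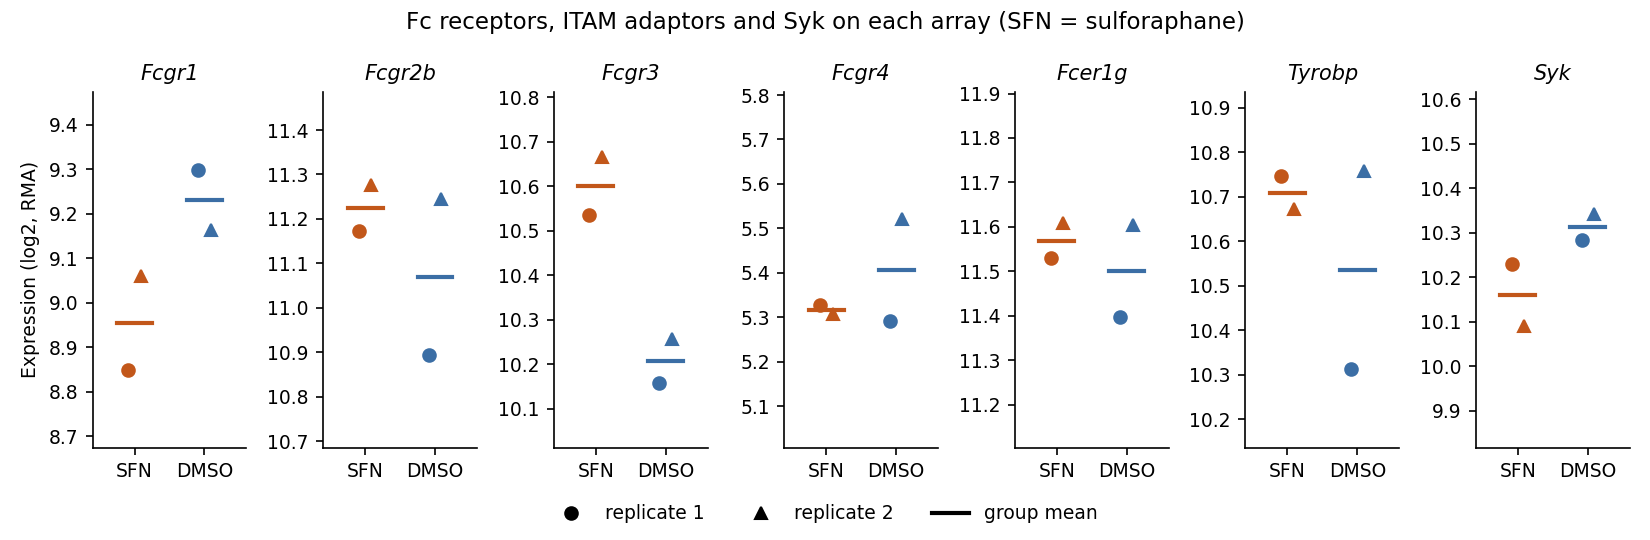
Expression (log2, RMA) of the 7 genes on each array, with circles for replicate 1, triangles for replicate 2 and bars for the mean of each group of 2 arrays. Every panel spans 0.8 on the log2 scale. Fcgr3 is higher and Fcgr1 and Syk are lower on both sulforaphane arrays than on both DMSO arrays, and the groups overlap in the other 4 genes.

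Among the activating receptors, Fcgr3, the low-affinity IgG receptor (probe set 17229620), had log2 values of 10.54 and 10.67 on the sulforaphane arrays, against 10.16 and 10.26 on the DMSO arrays. Both sulforaphane arrays lay above both DMSO arrays, and the gaps between replicates, 0.13 with sulforaphane and 0.10 with DMSO, were smaller than the gap between groups. The difference was 0.39 ± 0.11 (moderated SE, n = 2 per group; 95% interval 0.11 to 0.67), a 1.31-fold higher level, with an adjusted p of 0.250 by limma. In size it ranked at the 91.3 percentile of all genes tested. With 1 array left out it ran from 0.33 to 0.46, and it stayed above 0 with each of the 4 arrays left out.

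Fcgr1, the high-affinity IgG receptor of monocytes, macrophages and dendritic cells (probe set 17408024), had 8.85 and 9.06 with sulforaphane, against 9.30 and 9.16 with DMSO. The groups did not overlap, though the upper sulforaphane value and the lower DMSO value were close. The difference was -0.28 ± 0.13 (SE; 95% interval -0.59 to 0.034; adjusted p = 0.437 by limma). It was -0.17 without sulforaphane replicate 1 and -0.38 without sulforaphane replicate 2.

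Markers of macrophages and monocytes were below 0 in 13 of 15, beside 45.8% of all genes. Their mean log2 level was 7.91 and 7.89 with sulforaphane against 8.08 and 8.15 with DMSO. Whether these cells had a part in the Fcgr1 or the Fcgr3 value was not tested. Of the 15, 0 passed the limma threshold, and 8 were lower and 0 higher without overlap, beside 19.5% and 24% of all genes. The 4 with an unadjusted p under 0.05, which 13% of all genes had, were all lower: Cx3cr1 (-0.79), Vcam1 (-0.78), Ccr2 (-0.51) and Mertk (-0.39). Of these, Cx3cr1 had a low mean log2 value of 4.59. The groups overlapped in Csf1r (-0.033), Cd68 (-0.028), C1qb (-0.057), Cd14 (-0.12) and Mrc1 (-0.18). They also overlapped in C1qa (0.025) and C1qc (0.18), the 2 markers above 0.

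Markers of neutrophils were above 0 in 8 of 12. Their mean log2 level was 9.48 and 9.31 with sulforaphane against 9.25 and 9.54 with DMSO, so the groups overlapped. Of the 12, 0 passed in limma and 1, Cebpe (-0.40), had an unadjusted p under 0.05. A part of neutrophils in the Fcgr1 or the Fcgr3 value was not tested either. Dendritic cell markers lay above 0 in 7 of 13, and 0 passed in limma. Without overlap, 6 were lower and 3 higher, beside 19.5% and 24% of all genes. The 5 with an unadjusted p under 0.05 were all lower: Irf4 (-0.87, adjusted p = 0.0565), Batf3 (-0.64), Kmo (-0.45), Flt3 (-0.42) and Zbtb46 (-0.34). B, T and NK cell markers lay above 0 in 1 of 7 tested. Of 14 listed, 6 lay under the filter on low values and 1 had no probe set. The 7 gave 0 calls and 1 gene, lower, at an unadjusted p under 0.05. Over all genes tested, 45.8% lay below 0 and 13% had an unadjusted p under 0.05.

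Because Fcgr3 and Fcgr1 lay on opposite sides, the value of Fcgr3 minus Fcgr1 within an array was 1.69 and 1.61 with sulforaphane, against 0.86 and 1.09 with DMSO. These 2 genes were picked for this after their values were seen, so no test was made of the difference of 0.67.

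Fcgr4, a receptor for some IgG subclasses found on mouse myeloid cells (probe set 17219199), had 5.33 and 5.31 with sulforaphane, against 5.29 and 5.52 with DMSO. The sulforaphane values lay between the DMSO values, and the difference was -0.089 ± 0.12 (SE; 95% interval -0.39 to 0.21; adjusted p = 0.833 by limma). Its sign turned to 0.025 without DMSO replicate 2.

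Fcgr2b, the inhibitory receptor (probe set 17229607), had 11.17 and 11.28 with sulforaphane, against 10.89 and 11.24 with DMSO. Only DMSO replicate 1 was low, and the other 3 arrays ran from 11.17 to 11.28. The difference was 0.15 ± 0.15 (SE; 95% interval -0.21 to 0.52; adjusted p = 0.737 by limma), less than the gap of 0.35 between the DMSO replicates, and it was -0.020 without DMSO replicate 1.

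The balance of the inhibitory receptor against the activating ones was set up as Fcgr2b minus the mean of Fcgr1, Fcgr3 and Fcgr4 on each array. It was 2.94 and 2.93 with sulforaphane, against 2.65 and 2.93 with DMSO. Only the change between groups is read from it, since levels of different probe sets cannot be compared. That change was 0.15, with an exact two-sided permutation p of 0.333, the smallest that 2 against 2 arrays allow. It rested on DMSO replicate 1, without which it was 0.0029.

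Neither of the ITAM adaptors passed the test. Fcer1g, the adaptor of the activating receptors (probe set 17229658), had 11.53 and 11.61 with sulforaphane, against 11.40 and 11.61 with DMSO, a difference of 0.067 ± 0.12 (SE; 95% interval -0.23 to 0.37; adjusted p = 0.879 by limma). The groups overlapped, with sulforaphane replicate 2 and DMSO replicate 2 nearly equal.

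Tyrobp, the second adaptor (probe set 17476364), had 10.75 and 10.67 with sulforaphane, against 10.31 and 10.76 with DMSO. DMSO replicate 1 was again the low array, and the DMSO replicates lay 0.44 apart, the widest gap among the 7 genes. The difference was 0.17 ± 0.17 (SE; 95% interval -0.23 to 0.58; adjusted p = 0.738 by limma). Without DMSO replicate 1 the value was -0.048 for Tyrobp and -0.036 for Fcer1g.

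Syk, the kinase that binds phosphorylated ITAMs (probe set 17287381), had 10.23 and 10.09 with sulforaphane, against 10.28 and 10.34 with DMSO. Both sulforaphane arrays lay below both DMSO arrays, by as little as 0.054 between the closest pair. The difference was -0.15 ± 0.11 (SE; 95% interval -0.43 to 0.12; adjusted p = 0.640 by limma).

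The 95% intervals, taken one gene at a time, bound what these arrays could have missed. In 5 of the 7 genes the interval of the main fit lay within 1.5-fold (0.585) in either direction. This count is narrow: the interval of Tyrobp ended at 0.580, just inside, and that of Fcgr1 at -0.587, just outside. The interval of Fcgr1 reached 1.5-fold lower and that of Fcgr3 1.5-fold higher. In 4 genes, Fcgr2b, Fcgr4, Fcer1g and Tyrobp, the DMSO replicates differed by more than the groups did. DMSO replicate 1 was the lowest of the 4 arrays in these 4 and in Fcgr3.

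**Figure D3:**
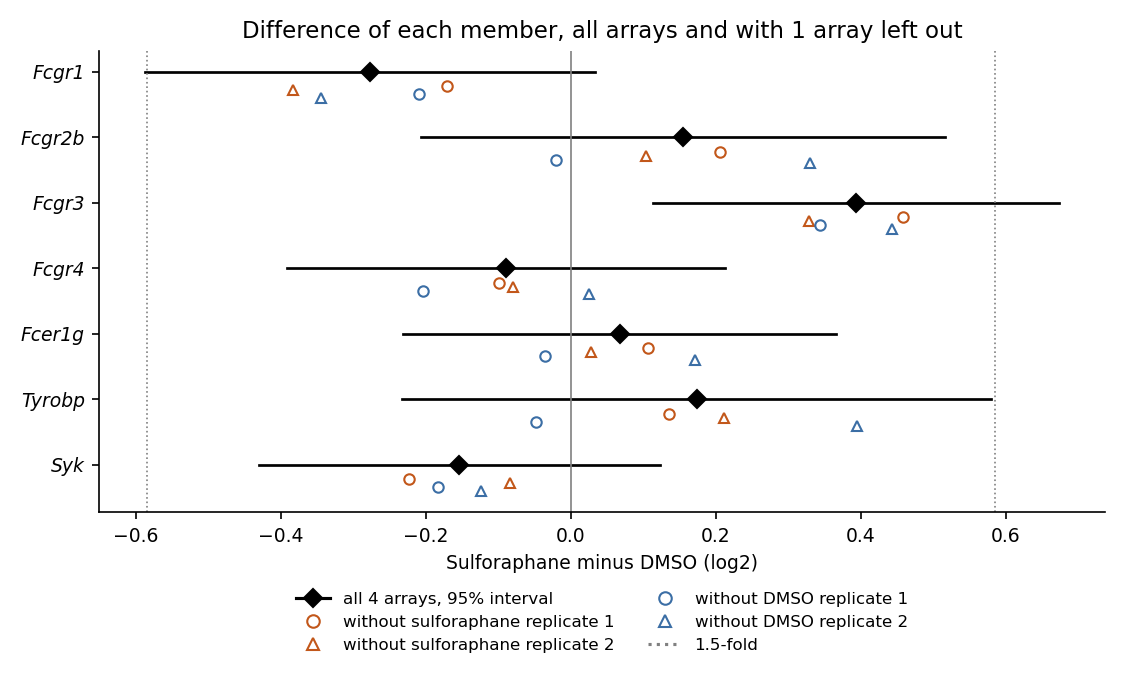
Sulforaphane minus DMSO (log2) of each gene, with diamonds and 95% intervals from all 4 arrays and open symbols for the fit without 1 array. Dotted lines mark 1.5-fold. Fcgr3 lies above 0 and Fcgr1 and Syk below 0 in every fit, while Fcgr2b, Fcer1g and Tyrobp cross 0 without DMSO replicate 1 and Fcgr4 without DMSO replicate 2.

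Other Fc receptors gave 0 calls by limma (3 at an unadjusted p under 0.05) among 9 genes tested of 12 listed, the other 3 lying under the filter on low values. Their median difference was -0.050, with 4 above and 5 below 0. Fcrl1, a receptor-like protein of B cells, had 5.11 and 5.23 with sulforaphane, against 4.50 and 4.54 with DMSO, a difference of 0.65 (adjusted p = 0.0975 by limma). Differences were -0.48 for the Fc receptor-like Fcrlb, -0.31 for Trim21, a cytosolic antibody receptor and ubiquitin ligase, and 0.19 for Fcgrt, the neonatal Fc receptor that recycles IgG. Adjusted p-values of these 3 lay between 0.245 and 0.574. The IgE receptor chain Fcer1a, which also needs the Fcer1g adaptor, had log2 values of 3.65 and 3.61 with sulforaphane, against 3.71 and 3.65 with DMSO. Of 9 mast cell and basophil markers tested, 8 lay below 0 and 0 passed in limma. The 2 with an unadjusted p under 0.05, Hdc (-0.61) and Gata2 (-0.57), were lower. Shares over all genes tested were 45.8% below 0 and 13% with an unadjusted p under 0.05.

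Receptors that pair with Fcer1g or Tyrobp, or carry their own single-tyrosine form of the motif, gave 0 calls (8 at an unadjusted p under 0.05) among 18 tested of 20 listed. Of these, 12 lay below 0 and 6 above, with a median of -0.11, and the groups did not overlap in 12 of 18 (9 lower, 3 higher). Over all genes tested, 45.8% lay below 0, 43.6% did not overlap (19.5% lower, 24% higher) and 13% had an unadjusted p under 0.05. Trem1, the Tyrobp-coupled amplifier of inflammation, had 8.31 and 8.29 with sulforaphane, against 9.10 and 9.24 with DMSO. Its difference was -0.87 ± 0.11 (SE, n = 2 per group; 95% interval -1.14 to -0.59), a 1.82-fold lower level, and its adjusted p of 0.0581 by limma missed the threshold.

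Clec5a, a lectin receptor that also pairs with Tyrobp, had 9.50 and 9.55 with sulforaphane, against 10.29 and 10.20 with DMSO. The difference was -0.72 ± 0.11 (SE; adjusted p = 0.0785 by limma), while Tyrobp itself differed by 0.17. Pilrb1, an activating receptor of the same adaptor, differed by -0.49 (adjusted p = 0.189). Cd300lb lay the other way, at 8.01 and 8.11 with sulforaphane against 7.13 and 7.65 with DMSO, a difference of 0.67 (adjusted p = 0.230). Receptors of this list lay on both sides of 0. Of the 8 with an unadjusted p under 0.05, 6 were lower and 2 higher, where 13% of all genes had such a p.

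Kinases and adaptors of ITAM signalling gave 0 calls among 31 tested of 33 listed, with a median of -0.026. An unadjusted p under 0.05 was seen in 5, beside 13% of all genes. Differences were above 0 in 12 and below 0 in 19, beside 45.8% of all genes below 0. Groups did not overlap in 16 of the 31, 4 higher and 12 lower, beside 24% higher and 19.5% lower over all genes. Fgr, a Src family kinase of myeloid cells, had 10.04 and 10.08 with sulforaphane, against 10.72 and 10.63 with DMSO, a difference of -0.61 ± 0.11 (SE; adjusted p = 0.102 by limma). The paracaspase Malt1, which links Card9 and Bcl10 to NF-kB, differed by -0.52, the exchange factor Vav2 by -0.42 and the adaptor Sh3bp2 by -0.29, with adjusted p-values between 0.241 and 0.344.

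Inhibitory receptors, phosphatases and ubiquitin ligases gave 0 calls among all 28 listed, with a median of -0.041. An unadjusted p under 0.05 was seen in 4, beside 13% of all genes. Differences were above 0 in 11 and below 0 in 17, beside 45.8% of all genes below 0. Groups did not overlap in 14 of the 28, with 1 higher, beside 24% of all genes, and 13 lower, beside 19.5%. Siglece, a sialic acid receptor with an ITIM, had 7.58 and 7.52 with sulforaphane, against 8.47 and 8.58 with DMSO, a difference of -0.97 ± 0.11 (SE; 95% interval -1.24 to -0.70) and an adjusted p of 0.0510 by limma. The adaptor Sla2 differed by -0.62, its relative Sla by -0.49 and Ptpn6, the SHP-1 phosphatase that ITIMs recruit, by -0.27, with adjusted p-values between 0.111 and 0.379. Across the plot of pathway differences, the 7 genes of the receptor and adaptor set lay within -0.28 and 0.39. From 5 to 95% of all genes tested the range was -0.36 to 0.38, so Fcgr3 lay just above it. Abundant genes spread less: the SD of the difference was 0.16 among 908 genes with a mean of 10 or more, against 0.24 over all genes tested.

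**Figure D4:**
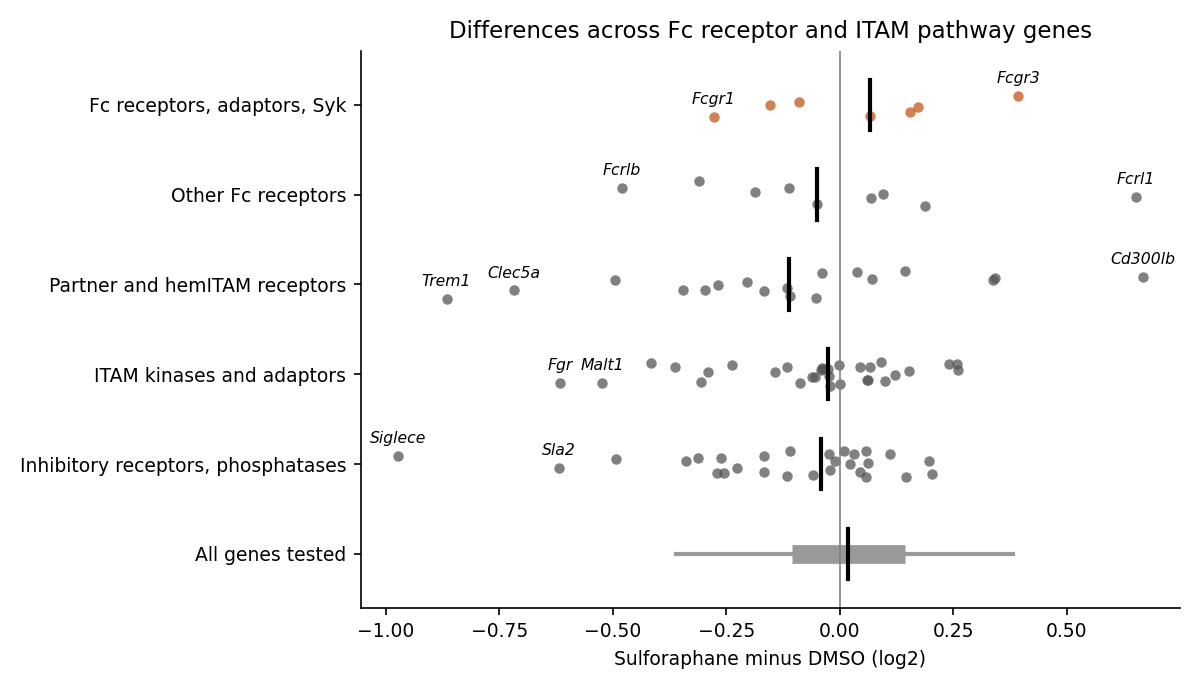
Sulforaphane minus DMSO (log2) of each tested gene (points, spread vertically for legibility) in 5 gene groups, with the median of each group as a black bar. The lowest row gives all genes tested, as the median, the middle 50% (thick bar) and the range from the 5 to the 95 percentile (thin bar), and Siglece, Trem1 and Clec5a lie farthest below 0.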

How the data were processed

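The authors deposited log2 expression values. Per the submitters' processing notes they used RMA, which corrects background, quantile-normalizes and summarises probe sets, and R 2.15.1. Base 2 was inferred from RMA and from the size of the values. Genome build and filters were not given in the sources used here. A platform annotation gave exactly 1 symbol to 23521 of 41345 probe sets, 1814 had several, and 16010 were not listed. Each gene's brightest probe set by mean was kept, and genes whose mean passed the 40th percentile (2.91) were tested, which included all 7 genes described. Sulforaphane minus DMSO was fitted with limma 3.58.1 (lmFit, eBayes) in R 4.3.3, with no replicate block and Benjamini-Hochberg adjustment over 14652 genes, and the fit was tested on simulated data. The genes, gene lists and motifs were chosen with earlier results of these data known. From each list, the 4 genes with the smallest p were named, plus any past the threshold, and single markers and Fcer1a were named after their values were seen. Alternatives were other filters, scalings, probe set choices, eBayes options, a replicate block and each array left out. The small number of arrays limits precision. No sample was dropped and no value imputed.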

Additional observations from a re-analysis of the deposited data

How the results depend on the processing

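Of the 7 genes, 0 passed the limma threshold in any of the 14 alternatives, and their smallest adjusted p ran from 0.0764 (Fcgr3, intensity trend in eBayes) to 0.741. Over all genes, 19 passed, and 138 with the filter at the 60th percentile, 106 with a second quantile normalization, 34 with the mean of probe sets, 249 with an intensity trend, 8 with the replicate block and 0 with every probe set tested (2231 at an unadjusted p under 0.05). Centring on the genes tested, chosen after seeing the data, gave 143, of which 41 were higher and 102 lower, against 9 and 10. With an array left out, 0 genes passed, when 1036 to 2850 had an unadjusted p under 0.05. Leaving out an array moved the difference from -0.020 to 0.33 for Fcgr2b, -0.036 to 0.17 for Fcer1g, -0.048 to 0.40 for Tyrobp and -0.20 to 0.025 for Fcgr4. These 4 turned sign, while Fcgr1 (-0.38 to -0.17), Fcgr3 (0.33 to 0.46) and Syk (-0.22 to -0.084) did not, and the balance of Fcgr2b against activating receptors ran from 0.0029 to 0.29. No other alternative turned the sign of any of the 7. The labels give same-numbered arrays no link beyond the number. The replicate 1 minus replicate 2 differences of the groups correlated at -0.081 over genes. With 1 such difference per group, this cannot show whether the arrays were paired.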
